A study of Mus musculus with 18 samples.

Results

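The genes described here are 10 mouse genes for acute phase proteins: the serum amyloid A genes Saa1, Saa2, Saa3 and Saa4, the orosomucoid genes Orm1, Orm2 and Orm3, lipocalin 2 (Lcn2), haptoglobin (Hp) and inter-alpha-trypsin inhibitor heavy chain 4 (Itih4). They were taken by symbol from the count files, where each of the 10 had 1 locus among 31099 loci with a gene identifier. All 10 passed the filter on low counts, which left 14241 genes for testing. The samples were 18 libraries of polyadenylated liver RNA from 6 groups of mice, with 3 libraries a group, and each library came from the pooled livers of 3 to 5 mice. In 3 of the groups the mice lacked the nuclear receptor PPARA (Ppara-null, Ppara-/-, here KO), and were fed chow with 0.1% Wy14,643, chow with 0.5% fenofibrate, or a normal control diet. The other groups were wild type (Ppara+/+, here WT) on the same diets. All mice were 8 weeks old, of a mixed C57BL/6 and SV129 background, and were on their diet for 48 h. Wy14,643 and fenofibrate are both PPARA agonists. They were given at different doses, so their values stand side by side without a test between them. The labels do not say whether the pools of a group came from separate cohorts, so p-values measure the spread between pools.

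Acute phase proteins are plasma proteins whose synthesis in hepatocytes changes during inflammation. Interleukin-6, acting through its receptor and the transcription factor STAT3, and interleukin-1, acting through NF-kB, are the classic inducers, and C/EBP factors bind many of the promoters. PPARA is a fatty acid sensor of the hepatocyte that raises genes of lipid oxidation when bound by a fibrate, and it is also known to lower inflammatory gene expression in liver. SAA1 and SAA2 are the inducible high-density lipoprotein apolipoproteins, SAA3 is made in liver and in macrophages, and SAA4 is the constitutive form. Orosomucoids (alpha-1-acid glycoproteins) bind drugs and dampen inflammation. Haptoglobin captures free haemoglobin, lipocalin 2 withholds iron from bacteria by binding siderophores, and ITIH4 is a secreted hepatocyte protein of the family that stabilises hyaluronan matrix.

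The promoters of the members that moved together, or that moved in a single library, are shown because Saa1 and Saa2, and Orm2 and Orm3, are near copies of each other. RefSeq windows on GRCm38.p6, from 250 bases before to 50 bases after the gene start, were held for 8 of the 10 members. Hp and Orm1 were not among them. Capitals mark matches, on either strand, to the C/EBP letters TTGCNNAA, which 10.8% of all 32851 windows hold, or to the NF-kB letters GGNNTTTCC, which 5.82% hold; the STAT letters TTCNNNGAA, found in 8.3% of windows, had no match in the 6 windows printed.
Saa1, chr7:46742931-46743230, minus strand: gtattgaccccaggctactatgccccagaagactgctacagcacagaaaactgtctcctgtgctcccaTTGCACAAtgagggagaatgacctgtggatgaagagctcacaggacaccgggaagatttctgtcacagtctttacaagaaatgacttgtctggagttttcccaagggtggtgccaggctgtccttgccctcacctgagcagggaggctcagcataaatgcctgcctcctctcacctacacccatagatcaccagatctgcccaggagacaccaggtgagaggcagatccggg
Saa2, chr7:46751583-46751882, plus strand: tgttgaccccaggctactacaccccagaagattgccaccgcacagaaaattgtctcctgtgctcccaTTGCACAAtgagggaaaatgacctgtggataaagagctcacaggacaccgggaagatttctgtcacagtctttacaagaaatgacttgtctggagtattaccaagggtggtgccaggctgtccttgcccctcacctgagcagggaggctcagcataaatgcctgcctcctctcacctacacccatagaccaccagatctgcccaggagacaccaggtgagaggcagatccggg
Saa3, chr7:46715627-46715926, minus strand: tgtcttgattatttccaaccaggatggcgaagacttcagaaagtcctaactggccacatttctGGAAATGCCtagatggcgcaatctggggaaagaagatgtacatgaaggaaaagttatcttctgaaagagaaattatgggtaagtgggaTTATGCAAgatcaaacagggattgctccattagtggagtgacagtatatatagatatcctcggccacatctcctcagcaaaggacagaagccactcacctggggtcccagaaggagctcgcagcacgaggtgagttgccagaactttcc
Lcn2, chr2:32387690-32387989, minus strand: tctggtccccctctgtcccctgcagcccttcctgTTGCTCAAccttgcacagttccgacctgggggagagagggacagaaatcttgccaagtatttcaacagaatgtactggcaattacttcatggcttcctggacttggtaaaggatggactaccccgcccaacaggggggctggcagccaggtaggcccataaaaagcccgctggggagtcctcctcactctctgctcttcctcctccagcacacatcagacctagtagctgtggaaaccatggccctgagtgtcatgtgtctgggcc
Orm2, chr4:63362199-63362498, plus strand: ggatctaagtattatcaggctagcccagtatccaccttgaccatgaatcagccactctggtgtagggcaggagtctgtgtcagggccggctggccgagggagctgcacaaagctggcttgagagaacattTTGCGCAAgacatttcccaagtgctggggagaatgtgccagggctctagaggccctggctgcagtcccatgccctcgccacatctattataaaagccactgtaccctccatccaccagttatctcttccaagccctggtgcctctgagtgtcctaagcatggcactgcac
Orm3, chr4:63355908-63356207, plus strand: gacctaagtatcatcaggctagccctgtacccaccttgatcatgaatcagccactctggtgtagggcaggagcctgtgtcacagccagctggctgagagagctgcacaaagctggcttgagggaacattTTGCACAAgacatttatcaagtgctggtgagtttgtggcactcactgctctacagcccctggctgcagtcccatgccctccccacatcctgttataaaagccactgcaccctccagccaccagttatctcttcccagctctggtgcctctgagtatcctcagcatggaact

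A C/EBP match was present in 7 of the 8 windows, all but that of Itih4, which held a STAT match between bases -51 and -43. In Saa1 it lay at bases -182 to -175 and in Saa2 at -183 to -176, counted from the RefSeq start, and the letters were the same in both. Saa3 held the sole NF-kB match, at -187 to -179, and Saa4 held 2 C/EBP matches. A match describes these letters in these windows and is not evidence of binding. The motif letters were chosen after the Saa1 window had been seen, and near copies share their matches. The number of windows with a match is therefore no test against the share of all windows. The Saa1 and Saa2 windows were 95.3% identical, and those of Orm2 and Orm3 86.6%. Transcripts were close as well: Saa1 and Saa2 were 93.9% identical, Orm1 and Orm2 91%, Orm2 and Orm3 88.3%, and Orm1 and Orm3 86.4%. Of the 50-base windows of the Orm1 transcript 20.4% also occurred in Orm2, so the division of reads between these paralogs, and between Saa1 and Saa2, depends on counting rules that no source used here gives.

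The Saa genes form a cluster on mouse chromosome 7 (mm10, as in the files): Saa3 at 46711998 to 46715676, Saa4 at 46727998 to 46732543, Saa1 at 46740497 to 46743072 and Saa2 at 46751777 to 46754314. The Orm genes are neighbours on chromosome 4, with Orm1 at 63344557 to 63348163, Orm3 at 63354741 to 63359511 and Orm2 at 63362449 to 63365878. The Orm3 window printed above, 63355908 to 63356207, lies inside the counted Orm3 locus, whose start differs from the RefSeq start. Lcn2 is on chromosome 2 at 32384633 to 32387797, Hp on chromosome 8 at 109575128 to 109579172, and Itih4 on chromosome 14 at 30886453 to 30901983. Orm2 overlaps Akna on the other strand, which had 937 counts over all 18 libraries.

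Libraries held 68858479 to 150695447 counts in genes. Major urinary protein (Mup) genes took 46% to 71.4% of them, 46% to 56.2% in WT libraries on an agonist and 64.9% to 69.7% in WT controls, so values here are counts-per-million (CPM) after TMM scaling, which discounts such dominant genes. Dividing by the library totals in place of TMM shifted the median log2 fold change of all genes by 0.81 under both agonists in WT livers, by 0.33 between KO and WT controls and by -0.35 under Wy14,643 in KO livers; under Wy14,643 in WT livers 95.5% of all calls were then higher, against 51.5% with TMM. Ppara averaged 15.1 to 15.4 CPM in KO groups, against 59 to 74.4 CPM in WT groups. Summed hepatocyte markers (8 genes) ranged from 15363.8 to 20419.6 CPM in WT libraries on an agonist, against 32724.9 to 33324.5 CPM in WT controls, and Kupffer cell markers from 47 to 61.5 CPM, against 79.1 to 87 CPM. Albumin (Alb) made up most of the hepatocyte sum, with 12331.4 to 17159.1 CPM in WT libraries on an agonist, against 26760.4 to 27062.3 CPM in WT controls. Of the 8 markers 5 were called lower under each agonist and 3 were not; Hnf4a had 112 to 169 CPM, against 139 to 157 CPM, and Apob 621 to 1024.3 CPM, against 567 to 894 CPM. Fewer cells of a type and less RNA of the marker genes per cell cannot be told apart in such bulk samples. Replicate 1 of KO livers on fenofibrate (a pool of 3 livers) stood at least 2-fold above the mean of its 2 companions for 6 of the 10 members, where 0.899% of all genes did, and replicate 1 of the WT controls for 5, where 0.302% of all genes did; each was 2-fold below for 0. Results that rest on either are given with and without it.

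With edgeR's quasi-likelihood test and Benjamini-Hochberg adjustment at 0.05, Wy14,643 lowered 7 of the 10 genes in WT livers (Saa1, Saa2, Saa4, Orm1, Orm2, Orm3 and Itih4) and raised 0, where 19% of all genes tested were called lower and 20.2% higher. Fenofibrate lowered 5 (Saa1, Saa2, Saa4, Orm1 and Itih4) and raised 0, against 17.6% lower and 19.3% higher among all genes. The members' median log2 fold change was -2.10 under Wy14,643 and -1.80 under fenofibrate, and that of all genes tested was -0.02 and 0.01. These 2 comparisons share their control libraries. Without replicate 1 of KO livers on fenofibrate the SE of Saa1 under Wy14,643 was 0.59, against 1.20 with it, and 8 members were called lower and 2 higher (Lcn2 and Hp) under Wy14,643, against 19.3% and 20.3% of 14442 genes, and 6 lower under fenofibrate, against 17.8%.

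**Figure D1:**
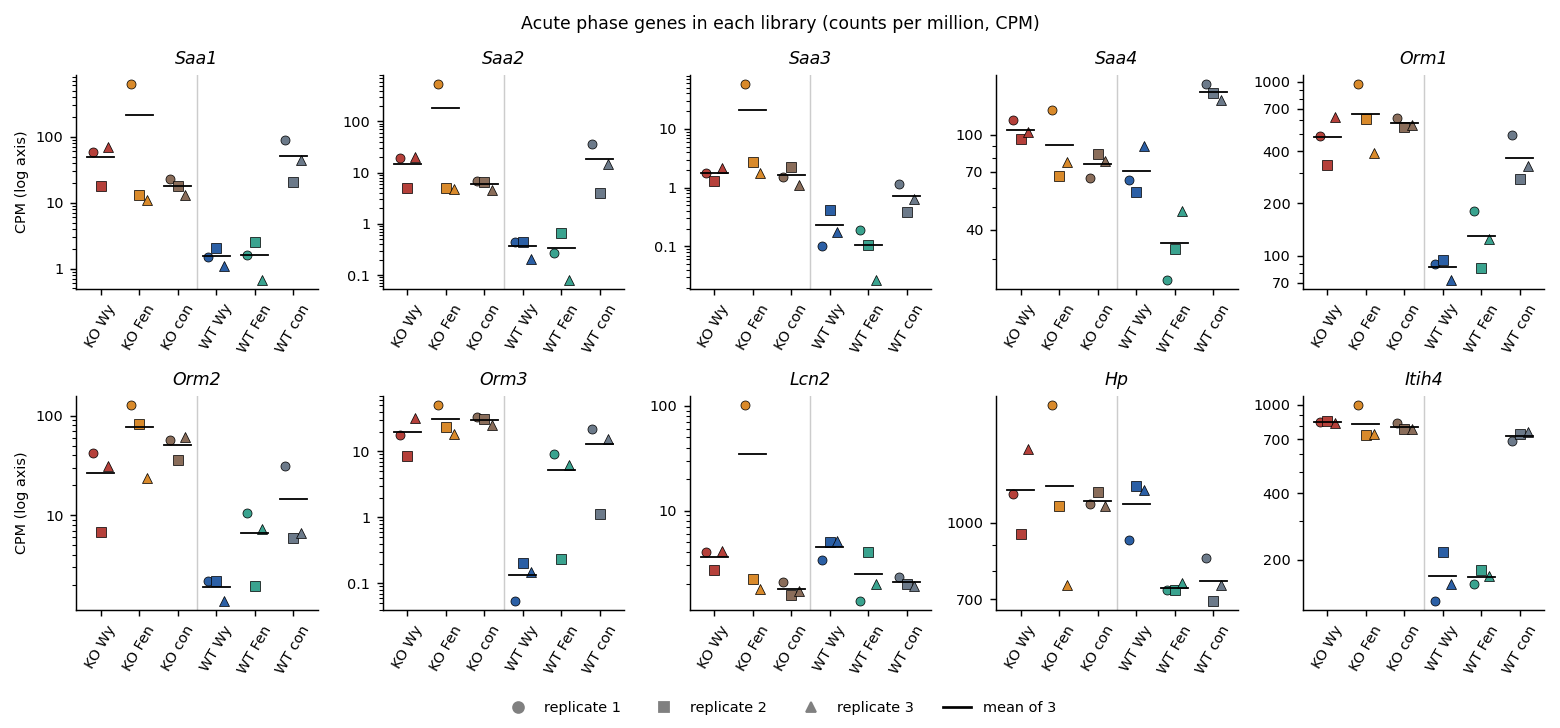
Level (CPM, log axis) of each member in every library, with KO groups on the left and WT groups on the right of each panel; symbols mark replicates and the line the mean of 3. Saa1 lay between 0.682 and 2.54 CPM in the 6 WT libraries on an agonist, and at 624 CPM in replicate 1 of KO livers on fenofibrate, and Itih4 lay between 131 and 218 CPM in WT libraries on an agonist and at 684 CPM or more in every other library.

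Saa1 had 1.5, 2.02 and 1.11 CPM in WT livers on Wy14,643 and 1.63, 2.54 and 0.682 CPM on fenofibrate, against 89.4, 20.3 and 44.7 CPM in WT controls. The 6 agonist libraries lay below all 3 controls, whose own values spread 4.39-fold. On the log2 scale Saa1 fell by 5.07 ± 1.20 under Wy14,643 (SE; adjusted p = 0.0024) and by 5.00 ± 1.20 under fenofibrate (adjusted p = 0.0028). Replicate 1 of the WT controls was the highest of its group, and without it the log2 fold change was -4.40 (adjusted p = 0.0093) under Wy14,643 and -4.34 (adjusted p = 0.011) under fenofibrate.

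Saa2, the close copy of Saa1, had 0.446, 0.433 and 0.209 CPM in WT livers on Wy14,643 and 0.271, 0.651 and 0.0818 CPM on fenofibrate, against 35.8, 4.08 and 14.6 CPM in WT controls. Again no agonist library reached a control library, although replicate 3 on fenofibrate rested on 9 counts. The log2 fold change was -5.64 ± 1.50 under Wy14,643 (adjusted p = 0.0059) and -5.80 ± 1.53 under fenofibrate (adjusted p = 0.0058). Leaving out replicate 1 of the WT controls gave -4.67 (adjusted p = 0.024) and -4.84 (adjusted p = 0.024), and leaving out replicate 2 of WT livers on fenofibrate gave -6.63 (adjusted p = 0.016) for that agonist.

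Saa3, the form that macrophages also make, was scarce in WT livers: 0.102, 0.423 and 0.174 CPM on Wy14,643 and 0.187, 0.105 and 0.0273 CPM on fenofibrate, against 1.17, 0.38 and 0.637 CPM in controls. The fenofibrate libraries lay below the controls and the Wy14,643 libraries overlapped them, and the lowest library held 3 counts of Saa3. Its log2 fold change was -1.70 ± 1.20 under Wy14,643 (adjusted p = 0.28) and -2.76 ± 1.39 under fenofibrate (adjusted p = 0.13), neither of which was called. Without replicate 1 of KO livers on fenofibrate both were called, at -1.69 ± 0.51 (adjusted p = 0.013) and -2.76 ± 0.58 (adjusted p = 0.001).

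Constitutive Saa4 had 64.4, 57.3 and 89.4 CPM in WT livers on Wy14,643 and 24.7, 33.2 and 47.8 CPM on fenofibrate, against 163, 150 and 140 CPM in WT controls. Replicates agreed within 1.93-fold in each of these groups, and the agonist libraries did not overlap the controls. Saa4 fell by 1.10 ± 0.23 on the log2 scale under Wy14,643 (adjusted p = 8.5e-04) and by 2.10 ± 0.24 under fenofibrate (adjusted p = 1.2e-06). With scaling by library totals the fall under Wy14,643 was not called (log2 fold change -0.28, adjusted p = 0.29).

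Among the orosomucoids, Orm1 had the most even replicates in these groups. It had 89.5, 95.1 and 73.2 CPM in WT livers on Wy14,643 and 181, 84.9 and 125 CPM on fenofibrate, against 492, 278 and 329 CPM in WT controls. No agonist library reached the controls, and Orm1 fell by 2.09 ± 0.31 on the log2 scale under Wy14,643 (adjusted p = 2.9e-05) and by 1.49 ± 0.31 under fenofibrate (adjusted p = 7.5e-04).

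Orm2 had 2.18, 2.17 and 1.39 CPM in WT livers on Wy14,643 and 10.6, 1.97 and 7.3 CPM on fenofibrate, against 31.4, 5.96 and 6.59 CPM in WT controls. Fenofibrate libraries overlapped the controls; Wy14,643 libraries did not. The fall under Wy14,643 was 2.94 ± 0.77 on the log2 scale (adjusted p = 0.0052), while under fenofibrate the log2 fold change was -1.15 ± 0.71 (adjusted p = 0.22). The Wy14,643 call needed replicate 1 of the WT controls: without it the log2 fold change was -1.71 (adjusted p = 0.068).

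Orm3 had 0.0548, 0.202 and 0.148 CPM in WT livers on Wy14,643, from 7 to 21 counts a library, and 9.07, 0.231 and 6.17 CPM on fenofibrate, against 22.1, 1.12 and 15.2 CPM in WT controls. All 3 Wy14,643 libraries lay below every control, whereas the fenofibrate and control libraries overlapped and each of those groups had replicate 2 far below the others. Orm3 fell by 6.60 ± 1.20 on the log2 scale under Wy14,643 (adjusted p = 2.5e-04; -5.94 and adjusted p = 0.0011 without replicate 1 of the WT controls). Under fenofibrate the log2 fold change was -1.30 ± 0.82 (adjusted p = 0.23).

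Itih4 showed the most even fall of the 10 genes. It had 131, 218 and 156 CPM in WT livers on Wy14,643 and 155, 180 and 169 CPM on fenofibrate, against 684, 738 and 751 CPM in WT controls. The highest agonist library was far below the lowest control. The log2 fold change was -2.11 ± 0.15 under both agonists (adjusted p = 2.4e-09 for Wy14,643 and 2.7e-09 for fenofibrate), and it was called with every alternative processing and every library left out.

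Haptoglobin was not called lower under either agonist. Hp had 921, 1185.9 and 1166.5 CPM in WT livers on Wy14,643 and 731, 730 and 755 CPM on fenofibrate, against 850, 696 and 747 CPM in WT controls. The Wy14,643 libraries all lay above the controls, and the fenofibrate libraries lay within their range. The log2 fold change was 0.51 ± 0.21 under Wy14,643 (adjusted p = 0.057; 0.0094 without replicate 1 of KO livers on fenofibrate) and -0.05 ± 0.21 under fenofibrate (adjusted p = 0.88). Under Wy14,643 Hp was also called without replicate 1 of WT livers on Wy14,643 (0.66) or replicate 2 of WT livers on fenofibrate (0.55). The same held without replicate 3 of KO livers on Wy14,643 (0.51) or replicate 2 or 3 of KO livers on fenofibrate (0.55 and 0.51). With library totals Hp was called higher under both, at 1.33 (adjusted p = 2.1e-06) and 0.77 (adjusted p = 8.7e-04), so its direction under fenofibrate turned with the scaling.

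Lcn2 was low in WT livers and was not called lower either. It had 3.35, 4.97 and 5.17 CPM on Wy14,643 and 1.38, 4.06 and 2 CPM on fenofibrate, against 2.3, 1.98 and 1.91 CPM in controls. Wy14,643 libraries exceeded all controls and fenofibrate libraries overlapped them. The log2 fold change was 1.12 ± 0.96 under Wy14,643 (adjusted p = 0.38; 0.0046 without replicate 1 of KO livers on fenofibrate) and 0.25 ± 0.98 under fenofibrate (adjusted p = 0.87).

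Comparing KO controls with WT controls, 1 of the 10 (Saa4) was called lower and 0 higher, where 5.66% of all genes were called lower and 4.28% higher. A fit on only these groups called 3 members higher and 2 lower, against 6.34% and 7.11% of genes. In the fit on all groups the members' median log2 fold change was 0.33, against 0.00 for all genes. Saa4 had 66.1, 83.1 and 77.9 CPM in KO controls, against the 163, 150 and 140 CPM in WT controls, so the groups did not overlap. It fell by 0.99 ± 0.23 on the log2 scale (adjusted p = 0.0075), and its call was lost with library totals (-0.66, adjusted p = 0.055), under which Orm1 (1.00, adjusted p = 0.0057), Orm2 (2.19, adjusted p = 0.017) and Hp (0.87, adjusted p = 0.0029) were called higher.

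Other members had a higher mean in KO controls than in WT controls without being called. Orm1 had 617, 550 and 567 CPM in KO controls, against 492, 278 and 329 CPM in WT controls (log2 fold change 0.66 ± 0.30, adjusted p = 0.21). Orm2 had 56.8, 35.7 and 61.5 CPM, against 31.4, 5.96 and 6.59 CPM (1.80 ± 0.71, adjusted p = 0.13), and it was called without replicate 1 of the WT controls (3.03, adjusted p = 0.019). For Orm3 the values were 33.7, 30.8 and 25.2 CPM in KO controls, against 22.1, 1.12 and 15.2 CPM in WT controls (1.22 ± 0.81, adjusted p = 0.43). Hp had 1090.7, 1152.6 and 1080.3 CPM, against 850, 696 and 747 CPM (0.54 ± 0.21, adjusted p = 0.13), and without replicate 1 of KO livers on fenofibrate it was the single member called higher (adjusted p = 0.024), against 4.56% of genes; it was also called without replicate 3 of that group (adjusted p = 0.033). Itih4 differed by a log2 fold change of only 0.13 ± 0.14 (adjusted p = 0.69).

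Saa1 and Saa2 pointed the other way, with overlap. Saa1 had 22.6, 17.6 and 13.2 CPM in KO controls, against 89.4, 20.3 and 44.7 CPM in WT controls, a log2 fold change of -1.53 ± 1.01 (adjusted p = 0.43). Saa2 had 6.85, 6.58 and 4.55 CPM, against 35.8, 4.08 and 14.6 CPM (-1.60 ± 1.17, adjusted p = 0.49). The KO controls were the more even of the 2 groups for both genes: Saa1 spanned 1.71-fold there, against 4.39-fold in WT controls, and Saa2 1.51-fold, against 8.77-fold.

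In KO livers no change of the 10 genes under Wy14,643 passed the test. edgeR called 0 higher and 0 lower, where 0.133% of all genes were called higher and 0.105% lower. At an unadjusted p under 0.05 there were 0 members (4 without replicate 1 of KO livers on fenofibrate, of which 0 passed adjustment), and DESeq2 also called 0. Library totals called 1 lower (Orm1, -0.65, adjusted p = 0.048), with 20.8% of all genes lower, and a fit on only these groups called 1 higher (Lcn2, 0.99, adjusted p = 0.048), with 0.278% of all genes higher. Saa1 had 58.9, 17.6 and 69.4 CPM in KO livers on Wy14,643, against 22.6, 17.6 and 13.2 CPM in KO controls (log2 fold change 1.45 ± 1.00, adjusted p = 0.52). Itih4 had 840, 845 and 828 CPM, against 824, 777 and 775 CPM (0.08 ± 0.14, adjusted p = 0.82). The precision differed between genes, since 1 SE of the log2 fold change was 0.14 for Itih4 and 1.16 for Saa2. Lcn2 had a log2 fold change of 1.00 ± 0.98 (adjusted p = 0.65) and Saa4 of 0.47 ± 0.23 (adjusted p = 0.36) in the fit on all groups. Replicate 2 was the lowest KO library on Wy14,643 for all members except Itih4. For 4 of the members it was at least 2-fold below the mean of the other 2, where 0.569% of all genes were.

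**Figure D2:**
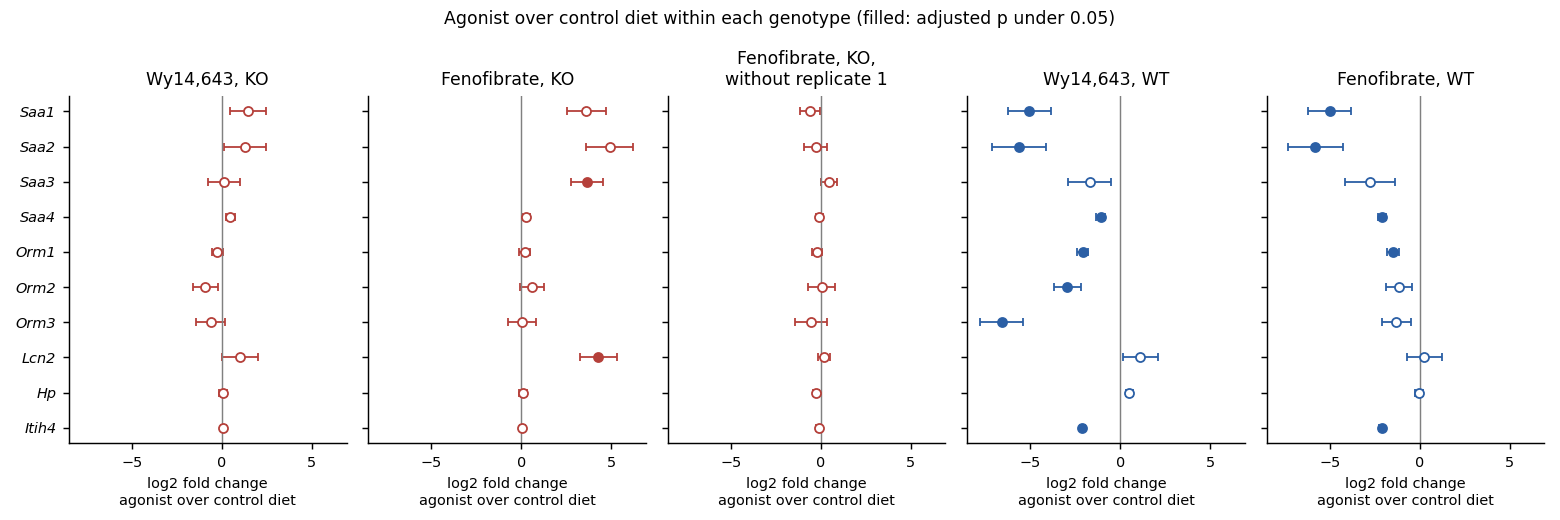
Log2 fold change of each member, agonist over control diet, in KO livers (red, 3 panels on the left, the third without replicate 1 of the fenofibrate group) and WT livers (blue); bars are 1 SE and filled points have an adjusted p under 0.05. Itih4 stands at -2.11 in both WT panels and at 0.08 and 0.05 in the KO panels, and the high Saa and Lcn2 points of KO livers on fenofibrate return to between -0.58 and 0.46 without replicate 1.

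Fenofibrate in KO livers gave 2 members called higher, Saa3 and Lcn2, and 0 lower, where 0.997% of genes were called higher and 0.548% lower, and both calls rested on 1 library, and were lost in 16 (Saa3) and 14 (Lcn2) of 18 fits that left out any 1 library. Saa3 had 57.3, 2.74 and 1.75 CPM in KO livers on fenofibrate, against 1.51, 2.27 and 1.1 CPM in KO controls. Its log2 fold change was 3.66 ± 0.90 (adjusted p = 0.0498), and 0.46 ± 0.44 (adjusted p = 0.67) without replicate 1. Lcn2 had 101, 2.24 and 1.8 CPM, against 2.1, 1.58 and 1.71 CPM, a log2 fold change of 4.28 ± 1.03 (adjusted p = 0.044), and 0.17 ± 0.33 (adjusted p = 0.86) without it. With that library left out, 0 members were called in either direction, against 1.1% higher and 0.409% lower among all genes. Deviations of same-numbered libraries had correlations of 0.118 to 0.205 over 3 pairs in this comparison. These lie inside the range of other-numbered pairs over all groups (-0.418 to 0.452), so they do not show a pairing. The fit with the number as a block also called 0 members (adjusted p = 0.14 for Saa3 and 0.11 for Lcn2).

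Saa1 and Saa2 had larger means still in that group, from the same library. Saa1 had 624, 12.9 and 10.9 CPM in KO livers on fenofibrate, against 22.6, 17.6 and 13.2 CPM in KO controls, and Saa2 had 531, 5.03 and 4.82 CPM, against 6.85, 6.58 and 4.55 CPM. The log2 fold changes of 3.60 ± 1.09 (adjusted p = 0.11) and 4.91 ± 1.32 (adjusted p = 0.073) were not called, and without replicate 1 they turned to -0.58 ± 0.56 (adjusted p = 0.67) and -0.29 ± 0.65 (adjusted p = 0.88). Without replicate 2 or 3, which leaves replicate 1 a larger weight, both were called (Saa1 at 4.14 and 4.16, Saa2 at 5.47 and 5.48).

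The orosomucoids, Saa4, Hp and Itih4 were also highest in replicate 1, by smaller factors. Orm1 had 966, 609 and 392 CPM in KO livers on fenofibrate, Orm2 127, 82.2 and 23.7 CPM and Orm3 49.9, 23.5 and 18.3 CPM. Saa4 had 127, 66.9 and 76.8 CPM, Hp 1725.8, 1078.9 and 749 CPM, and Itih4 994, 733 and 739 CPM. None of these 6 was called against KO controls, with log2 fold changes from 0.03 to 0.59.

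Set against the mean of its 2 companions, replicate 1 was at least 2-fold higher for 6 of the 10 members and 2-fold lower for 0, where 0.899% of genes tested were at least 2-fold higher and 0.871% lower. The ratio was 108-fold for Saa2, 52.4-fold for Saa1, 50.1-fold for Lcn2 and 25.5-fold for Saa3, which ranked 1, 2, 3 and 5 among the 14241 genes. Orm2 and Orm3 were 2.39-fold and 2.38-fold higher, and the remaining members 1.35-fold to 1.93-fold. There is 1 such library, so these ratios have no replicate.

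Some other genes of the response were higher in the same library. Of 21 other positive acute phase genes tested, 7 were at least 2-fold higher in replicate 1 and 0 lower, as were 1 of 16 cytokine and receptor genes (Cxcl1) and 2 of 23 signalling and transcription genes (Nfkbiz and Nfkb1), set against the 0.899% of all genes. Among the 7 was Il1rn, the interleukin-1 receptor antagonist, at 8.99 CPM in replicate 1 and 1.49 and 1.73 CPM in replicates 2 and 3. Steap4, a metalloreductase, had 96.4 CPM in replicate 1, with 21.8 and 26.9 CPM in the others. The neutrophil attractant Cxcl1 had 5.21 CPM there, with 0.772 and 0.408 CPM in the others, and Nfkbiz, a nuclear regulator of NF-kB, had 3.22, 1.14 and 1.65 CPM. None of the 10 negative acute phase genes was 2-fold lower or higher: albumin (Alb), for example, had 16745.2, 21512.7 and 24998.9 CPM.

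Neutrophil markers were higher in the same library, from a low base. The 12 markers summed to 5.52 CPM in replicate 1 of KO livers on fenofibrate, with 1.42 and 1.62 CPM in replicates 2 and 3, and to between 0.515 and 0.913 CPM in the other 15 libraries. S100a8 had 2.95, 0.731 and 0.963 CPM in that group and S100a9 0.899, 0.142 and 0.0607 CPM. Retnlg, Cxcr2, Csf3r, Mmp8, Mmp9, Elane and Camp were also highest in replicate 1 of the group. Ngp was highest in replicate 2, Mpo had 0 CPM in replicate 1, and Ly6g had 2 counts over all 18 libraries. Of the 12 markers, 4 passed the count filter. Kupffer cell markers summed to 127, 121 and 86.8 CPM, monocyte markers to 22.3, 22 and 15.1 CPM, and hepatocyte markers to 22272.3 CPM in replicate 1, the lowest of the 9 KO libraries. Alb, at 16745.2 CPM, made up most of that hepatocyte sum. Over the 8 hepatocyte markers the median log2 ratio of replicate 1 to its companions was -0.08, with 1 at least 2-fold higher and 0 lower. The part of these cells in the high Saa and Lcn2 values was not tested. Interleukin-6 (Il6) had 0 counts in all 18 libraries, and so had Fgl1 of the positive list, Ccl2 and Myd88. A gene that was not expressed cannot be told from a locus whose reads were not counted. Tumour necrosis factor (Tnf) was under the count filter. Interleukin-1 beta (Il1b) had 0.412, 0.396 and 1.2 CPM in KO livers on fenofibrate, so its highest value was in replicate 3.

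**Figure D3:**
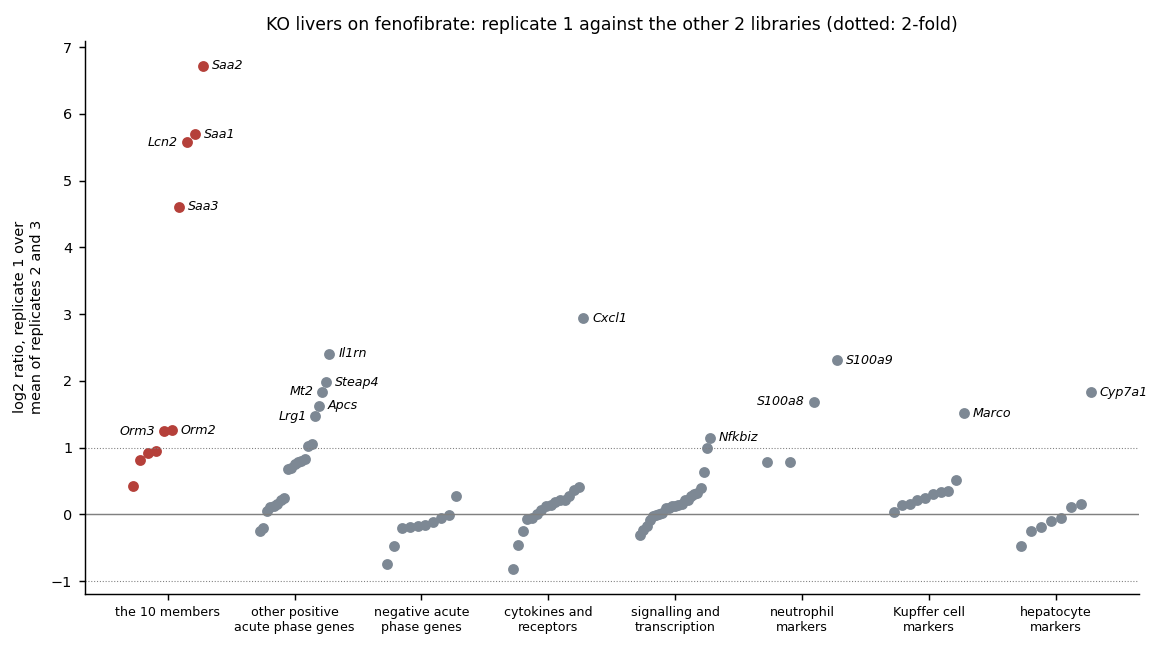
Log2 ratio of replicate 1 to the mean of replicates 2 and 3 in KO livers on fenofibrate, for the members (red) and for genes of 7 lists (grey), 1 point a gene; dotted lines mark 2-fold. Saa2, Saa1, Lcn2 and Saa3 lie between 4.61 and 6.72, above every gene of the other lists.

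With an agonist present, most members were higher in KO livers than in WT livers. On Wy14,643, 8 of the 10 were called higher in KO livers and 0 lower, where 27.1% of genes were called higher and 25% lower, with a median log2 fold change of 2.72 for the members and 0.05 for all genes. On fenofibrate all 10 were called higher, against 24.1% of genes called higher and 22.9% lower, and 7 were without replicate 1, against 22.4%. Itih4 had 840, 845 and 828 CPM in KO livers on Wy14,643, against 131, 218 and 156 CPM in WT livers (log2 fold change 2.31 ± 0.15, adjusted p = 4.2e-10), and Orm1 487, 334 and 630 CPM, against 89.5, 95.1 and 73.2 CPM (2.49 ± 0.32, adjusted p = 3.1e-06).

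Orm3 and the inducible Saa genes had the widest gaps on Wy14,643. Orm3 had 17.7, 8.48 and 32.3 CPM in KO livers, against 0.0548, 0.202 and 0.148 CPM in WT livers, a log2 fold change of 7.20 ± 1.21 (adjusted p = 7.3e-05). Saa1 had 58.9, 17.6 and 69.4 CPM, against 1.5, 2.02 and 1.11 CPM (4.98 ± 1.19, adjusted p = 0.0019), and Saa2 19.4, 5.09 and 19.8 CPM, against 0.446, 0.433 and 0.209 CPM (5.34 ± 1.49, adjusted p = 0.0059). Orm2 had 42.6, 6.8 and 31.3 CPM, against 2.18, 2.17 and 1.39 CPM (3.82 ± 0.79, adjusted p = 5.8e-04). In none of these 4 genes did a KO library overlap a WT library.

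Weaker calls on Wy14,643 were those of Saa3 and Saa4. Saa3 had 1.78, 1.31 and 2.15 CPM in KO livers, against 0.102, 0.423 and 0.174 CPM in WT livers (2.94 ± 1.12, adjusted p = 0.035). Its call was lost in 4 of 18 fits that left out 1 library: the log2 fold change was 2.93 and 2.78 without replicates 1 and 3 of the KO group and 2.52 and 2.75 without replicates 1 and 3 of the WT group (3.62 without replicate 2 of the WT group, still called). Kupffer cell markers, whose cells can make SAA3, summed to 118 to 146 CPM in KO livers on Wy14,643, against 49.4 to 53.2 CPM in WT livers, and their part in the Saa3 difference was not tested. Saa4 had 115, 96.3 and 103 CPM, against 64.4, 57.3 and 89.4 CPM (0.58 ± 0.23, adjusted p = 0.041). Its call was lost in 6 of the 18, each of the 3 KO libraries (0.50, 0.64 and 0.59), replicates 1 and 2 of the WT group (0.47 and 0.40) and replicate 2 of WT livers on fenofibrate (0.53), and its direction turned with library totals (-0.26, adjusted p = 0.33). Hp (0.10 ± 0.21, adjusted p = 0.72; -0.77 with library totals) and Lcn2 (-0.31 ± 0.93, adjusted p = 0.8) were the 2 not called.

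On fenofibrate, the Saa fold changes took much of their size from replicate 1 of the KO group. Saa1 was higher by 7.07 ± 1.30 on the log2 scale in KO livers (adjusted p = 2.1e-04) and by 2.89 ± 0.58 without that library (adjusted p = 6.3e-04), Saa2 by 9.11 ± 1.68 and 3.92 ± 0.79 (adjusted p = 2.1e-04 and 6.4e-04), and Saa3 by 7.56 ± 1.22 and 4.36 ± 0.57 (adjusted p = 5.8e-05 and 7.2e-06). Leaving out WT libraries moved them as well: Saa2 was at 9.93 without replicate 2 of WT livers on fenofibrate, and Saa3 at 8.31 without replicate 1. Calls for Orm3, Lcn2 and Hp were lost without replicate 1 of the KO group: Orm3 had 2.56 ± 0.85 with it and 2.01 ± 0.88 without (adjusted p = 0.019 and 0.075; 3.24 and 1.97 without replicates 1 and 2 of the WT group), Lcn2 3.83 ± 1.00 and -0.29 ± 0.33 (adjusted p = 0.0042 and 0.5), and Hp 0.68 ± 0.21 and 0.31 ± 0.16 (adjusted p = 0.011 and 0.14). Saa4, Orm1, Orm2 and Itih4 were called both ways; Itih4 was higher by 2.29 ± 0.15 with the library and 2.13 ± 0.14 without it (adjusted p = 5.4e-10 and 1.9e-09).

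The test of whether an agonist acted differently in the 2 genotypes is the interaction term, the log2 effect in KO livers minus that in WT livers. For Wy14,643, 6 of the 10 members had a called positive term (Saa1, Saa2, Saa4, Orm1, Orm3 and Itih4) and 0 a negative one, where 14% of genes had a called positive and 14.1% a called negative term; without replicate 1 of KO livers on fenofibrate Saa3 joined them (adjusted p = 0.048), for 7 against 14.2% of genes. For fenofibrate, 7 had a called positive term (the Saa genes, Orm1, Lcn2 and Itih4) and 0 a negative one, against 10.7% and 11.6% of genes. Without replicate 1 of KO livers on fenofibrate there were 6, against 10.7%, since the term of Lcn2 went to -0.09 ± 0.44 (adjusted p = 0.92), with 4.03 ± 1.39 (adjusted p = 0.044) when it was kept. The Lcn2 call was lost in 15 of 18 fits that left out 1 library, and with the replicate number as a block (adjusted p = 0.12).

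Saa1, Saa2 and Orm3 had the widest Wy14,643 terms, 6.51 ± 1.55, 6.94 ± 1.89 and 5.98 ± 1.46 (adjusted p = 0.0041, 0.011 and 0.005), and without replicate 1 of the WT controls they were 5.85, 5.98 and 5.32, all still called. The fenofibrate terms of Saa1, Saa2 and Saa3 were 8.60 ± 1.61, 10.71 ± 2.02 and 6.42 ± 1.60, and 4.42 ± 0.77, 5.52 ± 0.98 and 3.22 ± 0.73 without replicate 1 of KO livers on fenofibrate, each called with and without it. Leaving out replicate 1 of the WT controls gave 7.93 for Saa1 and 9.75 for Saa2, leaving out replicate 2 of WT livers on fenofibrate gave 11.53 for Saa2, and leaving out its replicate 1 gave 7.17 for Saa3. Itih4 had the smallest error of the interactions, 2.19 ± 0.21 for Wy14,643 (adjusted p = 2.7e-07) and 2.16 ± 0.21 for fenofibrate (adjusted p = 4.1e-07). That of Saa4 was 1.57 ± 0.32 and 2.35 ± 0.32 (adjusted p = 0.0013 and 3.4e-05), and that of Orm1 1.83 ± 0.43 and 1.68 ± 0.43 (adjusted p = 0.0035 and 0.0078). Hp had terms of -0.44 ± 0.29 and 0.15 ± 0.29, which were not called (adjusted p = 0.28 and 0.77); with library totals they were called, at -1.64 and -0.67. Library totals moved the terms of all genes by -1.16 and -0.77 at the median, and under them the calls of Saa4 (0.40, adjusted p = 0.29) and Orm1 (0.62, adjusted p = 0.092) for Wy14,643 were lost.

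The wider acute phase set moved with the members in WT livers on an agonist. Of 21 other positive acute phase genes tested, 14 were called lower and 3 higher under Wy14,643, with a median log2 fold change of -0.73, and 14 lower and 1 higher under fenofibrate, with a median of -1.04. The shares of all genes were 19% lower and 20.2% higher under Wy14,643, and 17.6% and 19.3% under fenofibrate. The antiprotease gene Serpina1a fell by 1.85 ± 0.11 and 1.71 ± 0.11 on the log2 scale under the 2 agonists (adjusted p = 2.0e-10 and 7.4e-10), and the fibrinogen chains Fga (by 1.25 ± 0.16 and 1.23 ± 0.16; adjusted p = 4.2e-06 and 5.0e-06) and Fgg (by 1.31 ± 0.15 and 1.40 ± 0.15; adjusted p = 1.9e-06 and 9.2e-07) fell as well. C-reactive protein (Crp) fell by 0.73 ± 0.09 and 0.96 ± 0.09 (adjusted p = 3.2e-06 and 1.1e-07), though with library totals it was at 0.08 under Wy14,643. The 3 genes that rose under Wy14,643, named after their values were seen, were Il1rn (2.80, adjusted p = 1.3e-04), the lipopolysaccharide binding protein Lbp (0.98, adjusted p = 9.4e-04) and the leucine-rich glycoprotein Lrg1 (0.75, adjusted p = 0.031); Il1rn also rose under fenofibrate (2.81, adjusted p = 1.3e-04).

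Negative acute phase genes, hepatocyte products that fall in inflammation, also fell. All 10 were called lower under each agonist in WT livers, against 19% and 17.6% of all genes, with median log2 fold changes of -1.11 and -1.52. Transferrin (Trf) fell by 2.01 ± 0.10 and 1.94 ± 0.10 (adjusted p = 8.8e-12 and 1.9e-11) and fetuin B (Fetub) by 1.42 ± 0.09 and 1.60 ± 0.09 (adjusted p = 2.8e-10 and 6.9e-11). The lower sum of hepatocyte markers given above was found in the same libraries; Alb and transthyretin (Ttr) are on both lists, Tat is on the positive list and among the hepatocyte markers, Hnf4a is also on the signalling list, and the part of that sum in the lower acute phase genes was not tested.

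**Figure D4:**
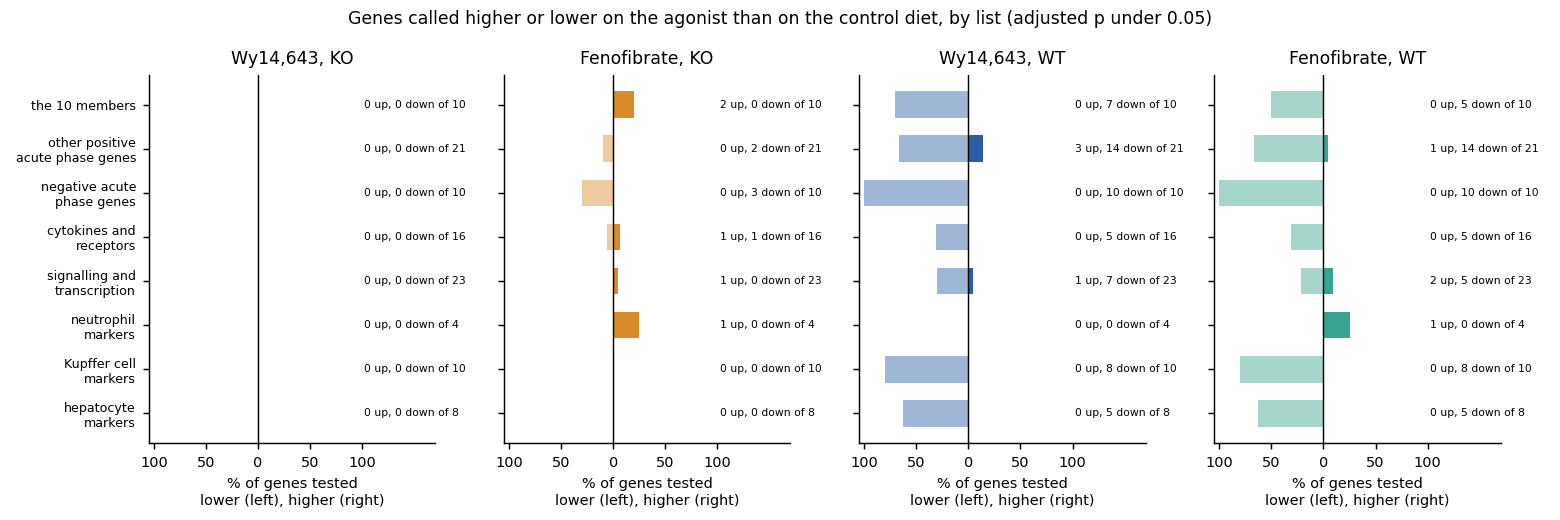
Percent of the genes tested in each list that were called lower (left of 0, pale) or higher (right of 0, dark) on the agonist than on the control diet, by genotype and agonist, with the counts printed. In WT livers 10 of 10 negative acute phase genes were lower under each agonist, against 19% and 17.6% of all genes. In KO livers on Wy14,643 none of the listed genes was called.

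Some cytokine receptor genes were lower in WT livers on an agonist. Of 16 cytokine and receptor genes tested, 5 were called lower and 0 higher under each agonist, where 19% of all genes were called lower under Wy14,643 and 17.6% under fenofibrate. Lifr, the leukaemia inhibitory factor receptor, averaged 24.3 CPM on Wy14,643 and 22.6 CPM on fenofibrate, against 148 CPM in controls (log2 fold change -2.60 ± 0.12 and -2.71 ± 0.12; adjusted p = 6.9e-12 and 5.4e-12). Il1rap, the accessory chain of the interleukin-1 receptor, fell by 1.63 ± 0.09 and 1.58 ± 0.09 (adjusted p = 5.3e-11 and 1.0e-10), and the interleukin-6 receptor Il6ra by 0.82 ± 0.20 and 1.10 ± 0.20 (adjusted p = 0.003 and 2.6e-04; -0.01 and -0.26 with library totals, not called). Tnfrsf1a was called lower as well, at -0.40 ± 0.07 and -0.26 ± 0.07 (adjusted p = 2.7e-04 and 0.0092), but higher with library totals, at 0.40 and 0.55. The signalling chain of the interleukin-6 receptor family, Il6st, was not called, at -0.10 ± 0.14 and -0.12 ± 0.14 (adjusted p = 0.59 and 0.55), nor was the interleukin-1 receptor Il1r1, at 0.21 ± 0.20 and -0.12 ± 0.20 (adjusted p = 0.43 and 0.68). With library totals both were called higher under each agonist, Il6st at 0.70 and 0.70 and Il1r1 at 1.02 and 0.71.

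Of 23 signalling and transcription genes tested, 7 were called lower and 1 higher under Wy14,643, and 5 lower and 2 higher under fenofibrate, where 19% and 17.6% of all genes were called lower. Ikbkb, a kinase that activates NF-kB, had log2 fold changes of -0.68 ± 0.08 and -0.65 ± 0.08 (adjusted p = 4.2e-06 and 7.7e-06), which turned to 0.13 and 0.16 with library totals. Irak1, an interleukin-1 receptor kinase, rose by 0.56 ± 0.11 and 0.64 ± 0.11 (adjusted p = 6.5e-04 and 2.2e-04). Stat3 had -0.49 ± 0.17 (adjusted p = 0.026) and -0.43 ± 0.17 (adjusted p = 0.052), turning to 0.32 and 0.39 with library totals, and its feedback inhibitor Socs3 had 0.41 ± 0.37 and 0.56 ± 0.37 (adjusted p = 0.41 and 0.26). Il1b, at 0.00783 to 0.424 CPM in WT libraries, had -1.27 ± 0.90 and 0.17 ± 0.79 (adjusted p = 0.28 and 0.89).

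In KO livers on Wy14,643 edgeR called 0 genes of the 4 lists. Under fenofibrate, the positive list had 0 of 21 higher and 2 lower (Itih3, -0.54 ± 0.08, adjusted p = 0.0027, and Serpina3m, -0.77 ± 0.16, adjusted p = 0.019), and 7 lower without replicate 1, where 0.548% of all genes were called lower, and 0.409% without it. The negative list had 0 of 10 higher and 3 lower: Trf (-0.45 ± 0.09, adjusted p = 0.019), apolipoprotein A-I (Apoa1; -0.59 ± 0.13, adjusted p = 0.022) and fetuin A (Ahsg; -0.41 ± 0.10, adjusted p = 0.049). Without replicate 1, 1 gene of that list was called, Trf (-0.55, adjusted p = 0.007), with adjusted p = 0.058 for Apoa1 and 0.091 for Ahsg. The cytokine and receptor list had 1 of 16 lower, Il1rap (-0.48 ± 0.09, adjusted p = 0.0084; 0.025 without replicate 1). With library totals the falls of Itih3, Trf, Apoa1, Ahsg and Il1rap kept their sign and were not called (adjusted p from 0.14 for Apoa1 to 0.39 for Ahsg). Serpina3m stayed called (-0.74, adjusted p = 0.022). Cxcl1 (2.90 ± 0.71, adjusted p = 0.046; 1.06 ± 0.48 and adjusted p = 0.3 without replicate 1) and Nfkbiz (1.49 ± 0.31, adjusted p = 0.021; 0.98 ± 0.26 and adjusted p = 0.071) were called higher. Stat3 (0.19 ± 0.16, adjusted p = 0.64), Socs3 (0.78 ± 0.34, adjusted p = 0.28) and Il1b (1.12 ± 0.72, adjusted p = 0.49) were not called. Between the control diets, 3 positive list genes were higher in KO livers and 2 lower: Serpina3k by 1.21 ± 0.15 and Crp by 0.63 ± 0.09 among the higher ones (adjusted p = 2.4e-05 and 8.7e-05), and serum amyloid P (Apcs) by -1.47 ± 0.32 and hepcidin (Hamp) by -0.65 ± 0.18 as the lower ones (adjusted p = 0.0053 and 0.029). All genes were called higher in 4.28% and lower in 5.66% of cases between these groups.

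Between genotypes on the same agonist, the positive list had 14 of 21 genes higher and 3 lower in KO livers on Wy14,643, and 13 higher and 1 lower on fenofibrate. Of all genes tested, 27.1% were called higher and 25% lower on Wy14,643, and 24.1% and 22.9% on fenofibrate. Haemopexin (Hpx), the haem scavenger, was higher by 1.93 ± 0.19 and 2.01 ± 0.19 (adjusted p = 1.3e-07 and 8.9e-08). Lifr was higher by 3.20 ± 0.12 and 2.98 ± 0.12 (adjusted p = 2.5e-13 and 7.1e-13), and its interaction terms were 2.75 ± 0.16 and 2.54 ± 0.16 (adjusted p = 7.5e-10 and 2.8e-09). All 10 negative acute phase genes were called higher in KO livers with each agonist, against 27.1% and 24.1% of all genes.

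Levels per kilobase of exon allow the genes to be ranked within a group. In WT controls the order of the mean CPM per kilobase was Hp at 568, Orm1 at 471, Itih4 at 217, Saa4 at 74.2, Saa1 at 56.3, Saa2 at 27.2, Orm2 at 18.9, Orm3 at 4.06, Saa3 at 1.37 and Lcn2 at 0.897. In WT livers on Wy14,643 the same measure put Hp at 811, Orm1 at 110, Itih4 at 50.4 and Saa4 at 34.6, with the other 6 between 0.0429 (Orm3) and 2.47 (Orm2). Exon lengths in the files were used. Those of Orm3 (3149 bases), Lcn2 (2302 bases) and Saa1 (914 bases) exceed their main GENCODE transcripts (773, 915 and 609 bases), which lowers their values on this scale. In WT controls the order of Saa4 and Saa1, and that of Saa3 and Lcn2, turns with the length used.

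Correlations between members across libraries are descriptions over 18 libraries of 6 groups, on log2 CPM, and the libraries share depth and group differences. Saa1 and Saa2 had a Pearson r of 0.99, Orm1 had 0.94 with Orm2 and 0.92 with Orm3, and Itih4 had 0.92 with Orm1. Saa1 had 0.87 with Itih4 and 0.86 with Orm1, and Saa3 had 0.84 with Orm1 (0.91, 0.85 and 0.90 over 17 libraries). Lcn2 had 0.44 with Saa1, and -0.16 over the 17 libraries without replicate 1 of KO livers on fenofibrate. Among 9096 other genes, the closest to Orm1 was Hpx (r = 0.98, with and without that library), and the closest to Itih4 was Cyp2c70 (0.99), with C8a first (0.99) over 17 libraries. For Saa1 and Saa2 it was Steap4 (0.93 and 0.94), and Dexi (0.96) and Camta1 (0.95) over 17 libraries, so those likenesses rested in part on 1 library. Saa3 was closest to Ripk2 (0.95) and then to Srgn (0.96), and Saa4 to Plod3 (0.88) and then to Tpst2 (0.92). Orm2 was closest to Parp12 (0.90) and then to Cyp2d11 (0.93), and Orm3 to Yrdc (0.89) and then to Mettl21a (0.89). Hp was closest to Npdc1 (0.83) and then to Tspan31 (0.88). Lcn2 was closest to D10Wsu102e (0.83, but a Spearman correlation of 0.40) and then to Tmem177 (0.78), so its likeness too rested in part on 1 library.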

How the data were processed

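Polyadenylated liver RNA from 18 pools was sequenced after a stranded kit, per the labels' protocols. Reads were trimmed with Trimmomatic 0.30 and aligned to mm10 with TopHat2 2.0.8, per the submitters' processing notes; how reads were counted, and whether by strand, is not stated by any source used here. The authors deposited raw counts per locus (52463 loci), of which 31099 carry a gene identifier; 12 blank or total rows and 5 read columns that could not be tied to a sample were left out, and 28 symbols were repaired through the identifier. Genes with low counts were filtered with filterByExpr. All 18 libraries entered 1 model in edgeR 4.0.16 (TMM scaling, quasi-likelihood F-test, R 4.3.3, limma 3.58.1) with a coefficient per group and Benjamini-Hochberg adjustment over 14241 genes at 0.05. Errors are SEs of log2 fold changes. The common biological coefficient of variation was 0.14. The procedure was tested on simulated data. Library totals bound counting error, and the spread between 3 pools a group sets the precision. Alternatives were DESeq2 1.42.0, other scalings and filters, a replicate block and leaving out each library.

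Replicate numbers come from the titles. Same-numbered libraries correlated between -0.439 and 0.445 in their deviations from group means (median 0.0375 over 45 pairs), and other-numbered ones had a median of 0.00718 over 90 pairs; all 3 pairs exceeded 0.1 only for Wy14,643 against control in WT livers and fenofibrate against control in KO livers. The members, the gene lists, the cell markers and the rules for named genes were chosen with earlier results of these data known, and the motif letters after the Saa1 window had been seen. Named genes outside the members come from those lists, or are stated as chosen after their values were seen.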

Additional observations from a re-analysis of the deposited data

Results flagged for a closer look

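The effect of an agonist differed between genotypes, by the interaction term (effect in KO livers minus effect in WT livers, log2), for 6 of the 10 genes with Wy14,643 and 7 with fenofibrate, all positive, where 14% and 10.7% of all genes had a called positive term and 14.1% and 11.6% a negative one. With Wy14,643 the term was 6.51 for Saa1, 6.94 for Saa2, 1.57 for Saa4, 1.83 for Orm1, 5.98 for Orm3 and 2.19 for Itih4. With fenofibrate it was 8.60 for Saa1, 10.71 for Saa2, 6.42 for Saa3, 2.35 for Saa4, 1.68 for Orm1, 4.03 for Lcn2 and 2.16 for Itih4. The terms of both agonists share the control libraries of both genotypes. Without replicate 1 of KO livers on fenofibrate, the fenofibrate terms were 4.42 for Saa1, 5.52 for Saa2, 3.22 for Saa3, 2.02 for Saa4, 1.28 for Orm1, 2.00 for Itih4 and -0.09 for Lcn2, which was no longer called.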

How the results depend on the processing

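Over all alternatives the 10 genes gave 2331 values, of which 2180 kept their direction and their side of the threshold, 79 lost a call, 42 gained one and 30 changed sign. For KO against WT controls the number of genes called was 3 with library totals (3 higher, 0 lower; all genes 17.1% and 2.11%), 2 with the replicate block (1 higher, 1 lower; 4.17% and 5.47%), 5 with only the groups compared (3 higher, 2 lower; 6.34% and 7.11%), and 1 to 2 when each library was left out. For Wy14,643 in KO livers it was 1 with library totals (0 higher, 1 lower; all genes 0.169% and 20.8%) and 1 with only the groups compared (1 higher, 0 lower; 0.278% and 0.225%). For fenofibrate in KO livers it was 0 with a robust dispersion (all genes 0.927% higher and 0.541% lower), 0 with the replicate block (0.941% and 0.47%) and 0 with only the groups compared (0.224% and 0.0224%), and 0 to 4 when each library was left out. With the block the Orm3 value there was -0.13. The block changed these calls too: Orm2 between controls was gained (2.15, adjusted p = 0.025), and the fenofibrate interaction of Lcn2 was lost; it changed no other call of the members. The cause was not tested.

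Library totals turned the sign of Saa3 (-0.27), Hp (-0.31) and Itih4 (-0.27) for Wy14,643 against control in KO livers, of Saa4 (-0.26) and Hp (-0.77) for KO against WT livers on Wy14,643, of Lcn2 between controls (0.13), of Hp under fenofibrate in WT livers (0.77) and in the fenofibrate interaction (-0.67). Among other genes they turned Crp (0.08), Tnfrsf1a (0.40), Ikbkb (0.13), Stat3 (0.32) and Il6st (0.70) under Wy14,643, and Tnfrsf1a (0.55), Ikbkb (0.16), Stat3 (0.39), Il6st (0.70) and Il1r1 (0.71) under fenofibrate, in WT livers. Totals shift the median of all genes, so the share of calls that are higher moved, with totals and with TMM, to 95.5% and 51.5% for Wy14,643 and 96.2% and 52.3% for fenofibrate in WT livers, 89% and 43.1% between controls, 0.8% and 55.9% for Wy14,643 and 90.5% and 64.5% for fenofibrate in KO livers, 7.4% and 52.1% for KO against WT livers on Wy14,643, 15.8% and 51.3% on fenofibrate, and 2.0% and 49.8%, and 3.6% and 47.9%, for the interactions.

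Leaving out each library in turn gave these ranges of values that changed sign. For fenofibrate against control in KO livers they were -0.58 to 4.16 for Saa1, -0.29 to 5.48 for Saa2, -0.08 to 0.42 for Saa4, -0.21 to 0.45 for Orm1, -0.52 to 0.30 for Orm3, -0.28 to 0.34 for Hp and -0.11 to 0.12 for Itih4. For Wy14,643 in KO livers they were -0.11 to 0.41 for Saa3 and -0.08 to 0.20 for Hp. For Il6st under Wy14,643 in WT livers they were -0.19 to 0.00. Under fenofibrate in WT livers they were -1.66 to 0.08 for Orm2, -0.26 to 0.54 for Lcn2, -0.11 to 0.03 for Hp, -0.24 to 0.03 for Il1r1 and -0.28 to 0.43 for Il1b. For KO against WT livers they were -0.06 to 0.22 for Hp on Wy14,643 and -0.29 to 4.40 for Lcn2 on fenofibrate, and for the interactions -0.34 to 0.06 (Lcn2, Wy14,643), -0.09 to 4.60 (Lcn2, fenofibrate) and -0.23 to 0.39 (Hp, fenofibrate). Saa2, Saa3 and Orm3 had as few as 9, 3 and 7 counts in WT libraries on an agonist, which limits their fold changes.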
